A study of Mus musculus with 2 samples.

Results

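Mir451a, Mir451b, Mir144, Mir486 and Mir3107 are 5 microRNA (miRNA) genes of 2 loci, and Mir451a, Mir144 and Mir486 rank among the leading miRNAs of red blood cells. They were chosen by name and taken from the 2202 miRNA genes listed in each of 2 libraries. Each library came from the heart of a male B6CASTF1/J mouse, the F1 of C57BL/6J and the wild-derived strain CAST, at an age of 25 days by the age labels, while the sample descriptions write months as the unit. Both belong to 1 group with no treatment, altered gene or contrast. The labels number them as separate biological replicates but give both the same donor identifier. Whether they came from separate mice could not be settled, so the spread between them may be partly or wholly technical. The 2 libraries are called the 2 hearts below, which is a label only, as both may come from the same heart. The labels do not say whether blood was washed out of the hearts. Replicate 1 had 4930853 reads counted for miRNA genes on the gene's strand and replicate 2 had 5229819, and 41.6% and 37.4% of all reads were placed at several loci and are in no gene's count. Levels are counts scaled to 1000000 assigned counts (CPM).

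MiRNAs are short RNAs that guide Argonaute proteins to messenger RNAs through a seed at their 5′ end. Mir144 and Mir451a are cut from a shared primary transcript, which the transcription factor GATA1 switches on in red cell precursors. The precursor of miR-451a is too short for Dicer and is cut by Argonaute 2 itself, and miR-451a is known to repress the adaptor protein gene Ywhaz in red cell precursors. Mir486 lies within Ank1, which encodes the ankyrin of the red cell skeleton and, from a separate promoter, a short ankyrin of striated muscle. It is therefore known both from blood and from muscle, where miR-486 represses Foxo1.

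The mature sequences at the Mir144 and Mir451a locus show which bases would pair with targets, and are given 5′ to 3′ with the seed (bases 2 to 8) in capitals. They and the hairpins below are from RefSeq on GRCm38.p6, whose table matched 3 of the 5 genes.
miR-451a: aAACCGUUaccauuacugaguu
miR-144-3p: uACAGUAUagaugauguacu
miR-144-5p: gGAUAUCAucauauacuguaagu
miR-451b: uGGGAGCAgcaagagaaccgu
None of these 4 seeds was shared with another of the 1679 mature miRNAs in the table. The first 6 bases of the miR-144-3p seed were shared with 1 other, miR-101a-3p. Neither arm of Mir144 occurred in another of the 1005 hairpins on either strand.

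The hairpins of the locus differ in where the mature miRNA sits. Mature bases are in capitals for Mir144 and Mir451a, and in Mir451b the capitals mark the bases that it shares with miR-451a.
Mir144 hairpin: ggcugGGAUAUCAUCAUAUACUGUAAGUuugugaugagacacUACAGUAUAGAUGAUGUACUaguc
Mir451a hairpin: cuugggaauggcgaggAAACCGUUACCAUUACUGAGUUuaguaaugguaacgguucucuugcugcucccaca
Mir451b hairpin: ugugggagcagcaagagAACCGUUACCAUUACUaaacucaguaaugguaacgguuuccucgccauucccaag
In Mir144 the mature arms lie on either side of the loop that RNAfold predicted at bases 31 to 36, at bases 6 to 28 and 43 to 62 of 66. In Mir451a the mature bases run from 17 to 38 of 72 and take in the whole predicted loop, at bases 35 to 38. The Mir451b hairpin is the exact reverse complement of that of Mir451a. A run of 16 bases of miR-451a, its bases 2 to 17, also reads in the Mir451b hairpin, because the stem is nearly its own complement. Aligned without gaps on that run, a full-length miR-451a differs from the opposite strand at 4 of its 22 bases.

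Mir144 (ENSMUSG00000065401.1) lies at chr11:78073005-78073070 and Mir451a (ENSMUSG00000070065.1) at chr11:78073170-78073241, both on the plus strand of mm10, with 99 bases between them. Mir451b (ENSMUSG00000104813.1) has the coordinates of Mir451a on the minus strand. In GENCODE M21 none of these 3 genes lies within a gene of another kind, and the nearest is Eral1, 135 bases beyond Mir451a on the minus strand. Mir486 (ENSMUSG00000070084.3) lies at chr8:23142555-23142682 on the plus strand, in an intron of all 15 Ank1 transcripts that span it. Mir3107 (ENSMUSG00000106471.1) lies inside it on the minus strand, at chr8:23142573-23142662, in an intron of the antisense gene Gm15816.

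**Figure D1:**
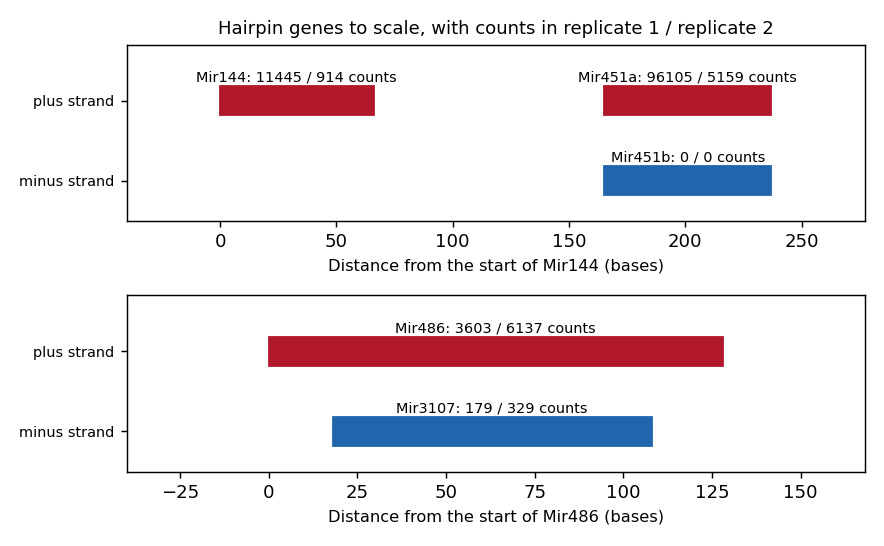
Hairpin genes of both loci drawn to scale, with distance in bases from the start of Mir144 (top) and of Mir486 (bottom) on the x axis and the strand on the y axis. The counts in replicates 1 and 2 are printed above each gene, and Mir451b is at 0 in both.

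By counts of reads placed at 1 locus, Mir451a was the highest of the 5 genes in replicate 1 and was below Mir486 in replicate 2. It had 96105 counts in replicate 1 and 5159 in replicate 2, or 19490 CPM and 986 CPM. It ranked 13th of all miRNA genes in the first heart and 72nd in the second. The mean of 10238 ± 13084 CPM (SD, n = 2) has an SD larger than itself and describes neither heart.

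Mir144, which is known to act in red cell formation beside Mir451a, had 11445 counts in replicate 1 and 914 in replicate 2. These are 2321 CPM and 175 CPM, ranks 39 and 127, and a mean of 1248 ± 1518 CPM (SD, n = 2). Both genes of this locus were high in the same heart.

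Mir451b had 0 counts in both hearts, and the 3 counts that a count of 0 allows correspond to 0.608 CPM in the first heart and 0.574 CPM in the other. All intervals and limits given here cover counting error only.

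Mir486 was more alike in the 2 hearts, with 3603 counts in replicate 1 and 6137 in replicate 2, or 731 CPM (exact Poisson 95% interval 707 to 755) and 1173 CPM (1144 to 1203). Its mean was 952 ± 313 CPM (SD, n = 2), and its ranks were 77 and 69. Mir3107 had 179 and 329 counts, or 36.3 CPM (31.2 to 42.0) and 62.9 CPM (56.3 to 70.1), with a mean of 49.6 ± 18.8 CPM (SD, n = 2). Both genes of the Ank1 locus were thus higher in the heart in which Mir451a and Mir144 were lower. Reads placed at several loci are in none of these counts, so the levels cover reads placed at 1 locus only.

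**Figure D2:**
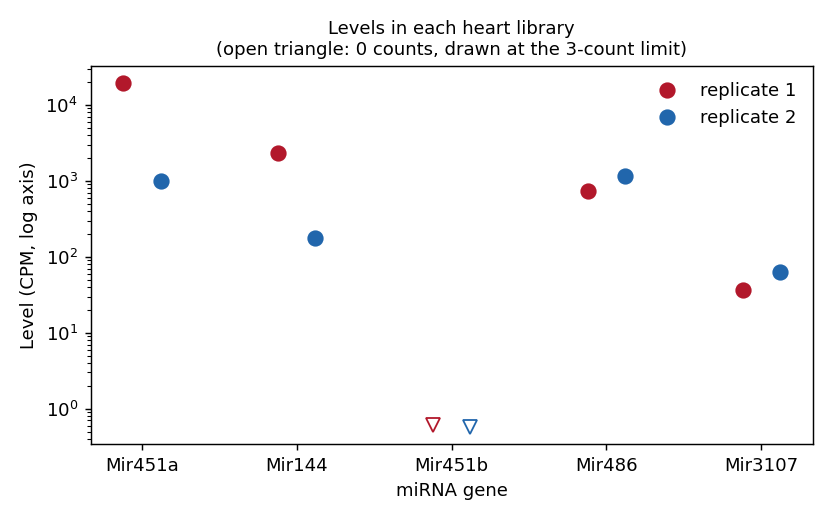
Level of each gene in each library (y axis, CPM on a log axis; x axis, gene; red, replicate 1; blue, replicate 2). Mir451a and Mir144 lie higher in replicate 1, Mir486 and Mir3107 higher in replicate 2, and the open triangles for Mir451b mark the limit that 0 counts allow.

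The 2 hearts were compared gene by gene with an exact conditional binomial test of the counts, two-sided, with Benjamini-Hochberg adjustment over the 356 genes that had at least 10 counts in both libraries. The test compares 2 libraries and not conditions, there is no replicate check of any ratio, and a p-value covers counting error only. Of the 4 members that could be tested, 2 were called higher in replicate 1, where 30.6% of the 356 genes were called, and 2 were called higher in replicate 2, where 32.9% were. With a change of over 2-fold as the criterion, 2 members were higher in replicate 1, against 10.1% of the genes, and 0 in replicate 2, against 7.58%. A call by the test is thus common between these libraries, and the size of a ratio has to be read against its spread over all genes, an SD of 0.86 on the log2 scale around a median of -0.021.

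Mir451a was 19.8-fold higher in replicate 1 (exact 95% interval 19.2 to 20.3), a log2 ratio of 4.30, which ranked 1st of the 356 genes. Mir144 was 13.3-fold higher (12.4 to 14.2), a log2 ratio of 3.73, which ranked 3rd. Only 4 of the 356 genes differed by over 10-fold in either direction. The minimum of 10 counts in both libraries leaves out genes that were low in 1 library, so the ranks hold among the 356 only. Among the 14 other genes within 2-fold of the mean level of Mir451a, log2 ratios ran from -1.26 to 1.17, and among the 45 within 2-fold of Mir144 from -2.02 to 1.17, so neither gene had a neighbour in level with as large a ratio. In bulk tissue fewer cells of a type, less RNA per cell and a technical difference between the libraries cannot be told apart. The blood content of each heart was not measured.

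Mir486 was 1.61-fold higher in replicate 2 (exact 95% interval 1.54 to 1.67; adjusted p = 1.62e-115, exact binomial test), and Mir3107 was 1.73-fold higher (1.44 to 2.09; adjusted p = 4.49e-09, exact binomial test). On the log2 scale the ratios of replicate 1 over 2 were -0.68 and -0.79, inside the SD over all genes. Of the 44 other genes within 2-fold of the level of Mir486, 13 had a larger ratio in absolute size, as had 20 of the 68 around Mir3107. These differences were beyond counting error but not beyond the spread between the libraries.

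**Figure D3:**
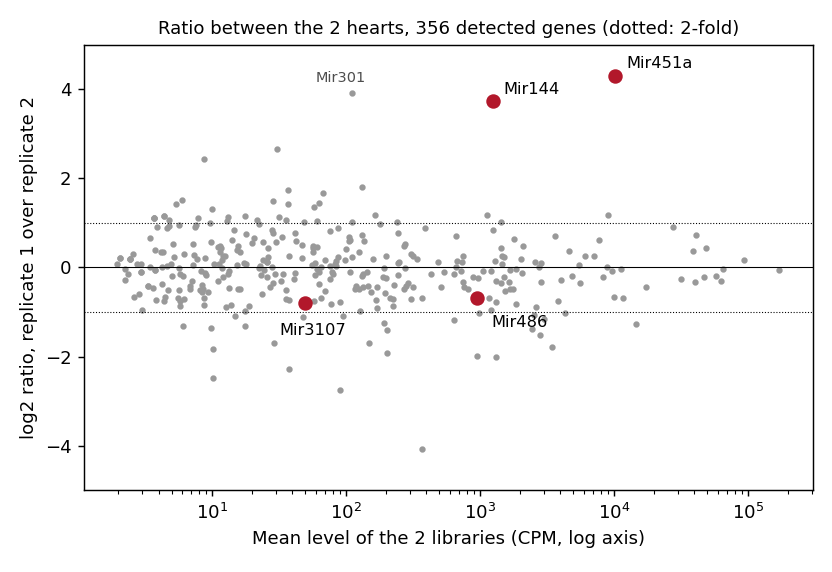
Log2 ratio of replicate 1 over replicate 2 (y axis) against mean level in CPM (x axis, log scale) for the 356 detected miRNA genes (grey) with the 4 tested members in red. Mir451a (4.30) and Mir144 (3.73) lie far above genes of like level, while Mir486 (-0.68) and Mir3107 (-0.79) lie between the dotted 2-fold lines.

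Ratios of counts within a library do not depend on its total, and 3 pairs of members were compared in this way. Mir451a had 8.40 counts per Mir144 count in replicate 1 (exact 95% interval 8.24 to 8.56) and 5.64 in replicate 2 (5.26 to 6.06). The odds were 1.49 times higher in replicate 1 (1.38 to 1.60; Fisher's exact test, two-sided, adjusted over 3 pairs p = 1.94e-24). The 2 hairpins of the shared transcript were thus higher in the same heart but not in full proportion. Their log2 ratios differed by 0.57, close to what other neighbours showed. Over the 62 other pairs of detected neighbours on the same strand within 1000 bases the median absolute difference was 0.52 (quartiles 0.25 and 0.88), and 33 pairs differed less. Only 1 of those pairs, Mir376c and Mir376b, had both genes over 2-fold apart between the hearts in the same direction; this pair was named after its values were seen.

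Mir486 had 20.1 counts per Mir3107 count in replicate 1 (exact 95% interval 17.3 to 23.5) and 18.7 in replicate 2 (16.7 to 20.9). A difference between the hearts in this ratio was not detectable (odds 1.08 times higher in replicate 1, interval 0.90 to 1.30; Fisher's exact test, adjusted p = 0.451). The interval leaves room for a change of up to 1.30 times. Mir451a over Mir486, a ratio across the 2 loci, was 26.7 in replicate 1 (25.8 to 27.6) and 0.841 in replicate 2 (0.810 to 0.872), 31.7 times apart (30.2 to 33.3; Fisher's exact test). By counts of reads placed at 1 locus, the order of Mir451a and Mir486 was thus opposite in the 2 hearts. Such ratios between genes also depend on how well each sequence ligates in library preparation. They depend as well on how many reads of each gene were placed at several loci and left out.

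Each deposited file counts reads without strand, on the strand of the gene and on the opposite strand, and the choice decides whether most members are seen at all. Without strand, Mir451a, Mir451b, Mir486 and Mir3107 were listed at 0 in both hearts, since a read over 2 genes that overlap is tallied as ambiguous. Mir144, which overlaps no other miRNA gene, kept its 11445 and 914 counts without strand, with 0 on the opposite strand. The 4 overlapping members supplied 7.44% of the ambiguous reads in replicate 1 and 0.808% in replicate 2.

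On the opposite strand each gene of a pair returned its partner's counts exactly. Mir451b was listed there with 96105 and 5159, the reads of Mir451a, and Mir451a with 0 and 0. Mir486 was listed there with 179 and 329, and Mir3107 with 3603 and 6137. Reading the opposite-strand counts as the gene's own would therefore have assigned the Mir451a reads to Mir451b.

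Among reads placed at 1 locus, the 2 overlapping pairs differed in the share of counts on the strand with fewer counts. In the Mir486 and Mir3107 pair, Mir3107 held 4.73% of the counts in replicate 1 (Clopper-Pearson 95% interval 4.08 to 5.46%). In replicate 2 it held 5.09% (4.57 to 5.65%). For Mir451a and Mir451b the minor strand held 0 of 96105 and 0 of 5159, with upper Clopper-Pearson 95% limits of 0.00384% and 0.0715%. Of the 16 other pairs on opposite strands with at least 100 counts in both hearts, 9 had 0 on the minor strand in both, and 1 pair, Mir24-1 with Mir3074-1, had a larger minor share than the Ank1 pair in both, at 34.8% and 15.4%. Any read whose bases match both strands of the locus would be placed at 2 positions and be missing from both counts. No sequence of Mir486 or Mir3107 was available, so whether reads of mature miR-486 itself are lost in this way could not be checked. The levels and strand shares of Mir486 and Mir3107 are therefore uncertain in that respect, and the shares do not measure strand use. A trimmed miR-451a read that covers only the 16 shared bases would be missing likewise.

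**Figure D4:**
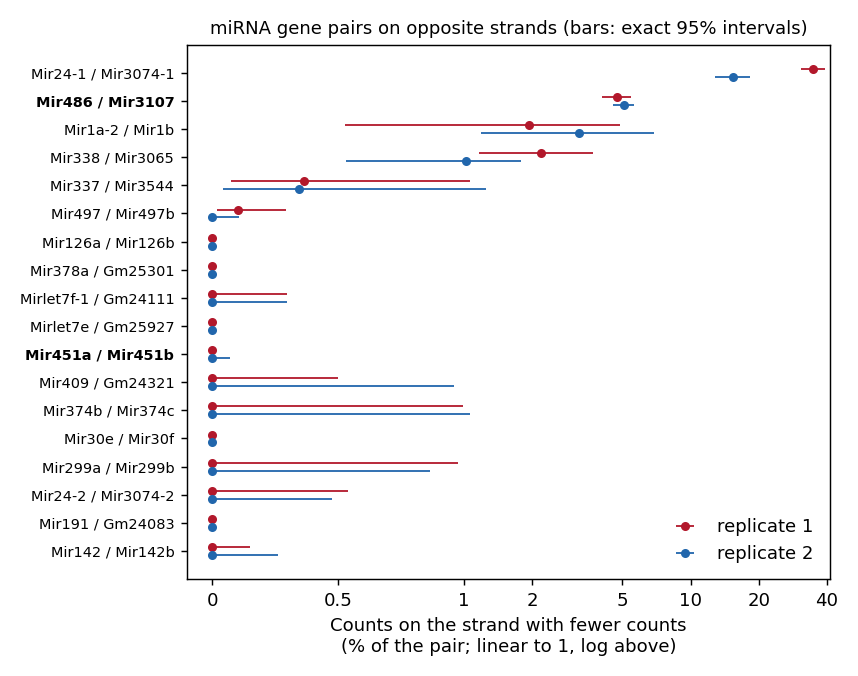
Share of counts on the strand with fewer counts (x axis, % of the pair, linear up to 1 and logarithmic above) for 18 pairs of miRNA genes on opposite strands (y axis), in replicate 1 (red) and replicate 2 (blue) with exact 95% intervals. The Ank1 pair lies near 5% in both hearts, second to Mir24-1, and the Mir451a pair is at 0.

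By ratio between the hearts, the 3 genes nearest to Mir451a among the 232 others with a mean of at least 100 counts were Mir301, Mir144 and Mir200b, with log2 ratios of 3.92, 3.73 and 2.65. Mir301 was at 207 and 13.6 CPM in replicates 1 and 2, and Mir200b at 53.3 and 8.41 CPM, and both were called by the exact test. The nearest to Mir486 were Mir187, Mir490 and Mir149, within 0.0081 of its log2 ratio. With 2 libraries such likeness rests on a single ratio per gene. By mean level Mir451a stood between Mir191 (11265 ± 180 CPM, SD, n = 2), known from blood and many other tissues, and Mir125a (10052 ± 3250 CPM), but it lay between them in neither heart, above both in replicate 1 and below both in replicate 2. Mir486 stood between Mir107 (954 ± 805 CPM) and Mir411 (892 ± 97.5 CPM), whose levels do not differ from it beyond their spread.

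The other detected miRNAs listed for red cells had smaller ratios than Mir451a and Mir144. Of the 14 other genes listed for red cell formation, all detected, 2 were higher in replicate 1, against 30.6% of all detected genes, 10 were higher in replicate 2, against 32.9%, and 2 did not pass the exact test, with a median log2 ratio of -0.36, against -0.021 over all detected genes. The list states no expected direction for its genes, so these calls do not measure red cell content. Mir126a, Mir191 and Mir221 were among the genes higher in replicate 2 (log2 ratios -0.30, -0.03 and -0.83), although Mir191 differed by only 1.02-fold. Mir155 did not pass, at 2767 and 2751 CPM. Of these 14 genes, Mir150, Mir155 and Mir223 are also in the leukocyte list and Mir126a, Mir221 and Mir222 in the endothelial one, so 5 of the 10 higher in replicate 2 are counted again below. Mir16-1, of the cell cycle family that is also abundant in red cells, was 2.03-fold higher in replicate 1, at 1915 and 945 CPM. Reads that match both Mir16-1 and Mir16-2 are in no gene's count, so these values do not give the level of a mature miRNA that both encode.

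A second list held miRNAs known as abundant in mature red cells, and 19 of its 23 genes were detected. Of the 19, 12 were higher in replicate 1, against 30.6% of all detected genes, 6 were higher in replicate 2, against 32.9%, and 1 did not pass. The median log2 ratio was 0.43, against -0.021 over all detected genes, and the range was -1.99 to 1.17. Like the other lists, this list was chosen with earlier results of these data known, and its calls are a description only. Mir93, Mir92-1 and Mir17, of the clusters that promote proliferation, were higher in replicate 1 (log2 ratios 0.62, 0.48 and 0.18), and Mir15b was higher in replicate 2 (-0.74). The largest ratio towards replicate 1, that of Mir20a at 2.25-fold, was under those of Mir451a and Mir144. The other 4 genes had too few counts to be tested, among them Mir103-1 with 0 counts in replicate 1 and 14 in replicate 2. Mir16-1, Mir16-2 and Mir15a are in both lists, several members are neighbours in 1 cluster, and these miRNAs are known from many tissues besides blood. As above, reads that match several copies of a gene are in no gene's count.

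Detected markers of other cells of the heart also had smaller ratios than Mir451a and Mir144, and the shares of calls to set beside them are again 30.6% (replicate 1) and 32.9% (replicate 2) of all detected genes. All 6 leukocyte genes were detected, with 1 higher in replicate 1 (Mir142, 503 and 271 CPM), 4 higher in replicate 2 (Mir150, Mir342, Mir146 and Mir223) and Mir155 not passing. They held 0.641% of assigned counts in replicate 1 and 0.811% in replicate 2. The endothelial genes had 4 higher in replicate 2, led by Mir126a (56392 and 69422 CPM) and Mir221 (1335 and 2368 CPM), and 1 higher in replicate 1, Mir10a (1615 and 896 CPM), with 5 of 6 detected. Mir126b had 3 counts in each heart. They held 5.99% and 7.35% of counts.

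Of the 9 heart muscle genes, 6 were detected, with a median log2 ratio of 0.17, against -0.021 over all detected genes. Against the same shares of 30.6% and 32.9%, 1 was higher in replicate 1 (Mir499, 2933 and 2758 CPM, in a myosin gene), 1 higher in replicate 2 (Mir208a, 1361 and 3562 CPM, in the alpha-myosin gene) and 4 did not pass, among them Mir208b and Mir1a-2. Mir133a-1 had 3 counts in replicate 1 and 30 in replicate 2, too few in replicate 1 to be tested. None of the 9 was at 0 in both hearts, and together they held 0.454% and 0.656% of counts. Many of these genes have copies elsewhere in the genome whose reads are in no gene's count. Whether red cell, muscle or endothelial content accounts for any of these ratios was not tested.

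**Figure D5:**
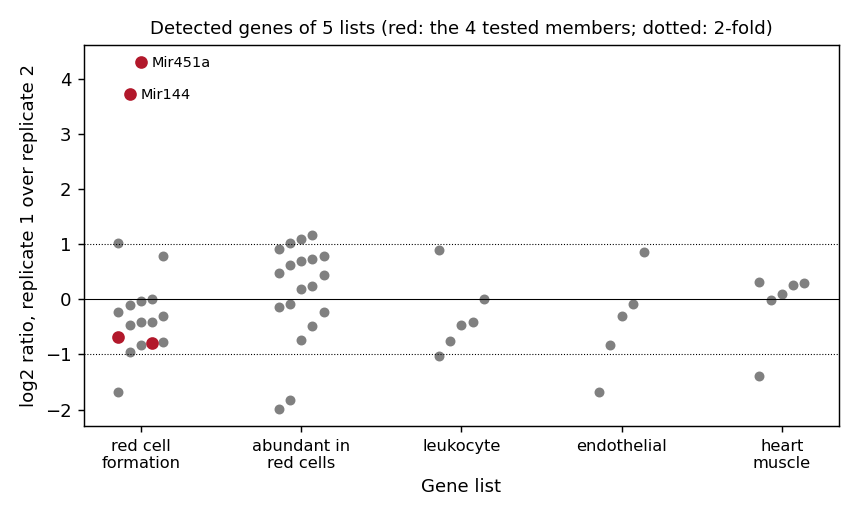
Log2 ratio of replicate 1 over replicate 2 (y axis) for the detected genes of 5 lists (x axis), with the 4 tested members in red and dotted lines at 2-fold. Apart from Mir451a (4.30) and Mir144 (3.73), the listed genes lie between -1.99 and 1.17.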

How the data were processed

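MicroRNA libraries were made from RNA under 30 nucleotides of heart tissue, per the labels. The authors deposited raw counts of reads for each miRNA gene, with build mm10 and annotation GENCODE M21 per their accompanying text. No aligner or counter is named there or in the labels. Each file holds 3 count columns and 4 entries of unassigned reads, left out of totals (62.7% and 63.6% of reads). All 2202 identifiers matched GENCODE M21. The counts on the strand of the gene were used. One group leaves no contrast for edgeR's quasi-likelihood test. An exact conditional binomial test (scipy 1.17.1) over genes with at least 10 counts in both libraries was therefore used, at an adjusted p of 0.05. It was tried on simulated Poisson counts, which hold counting error only and not the wider spread between these libraries. Log2 ratios use a pseudocount of 0.5 counts. TMM (edgeR 4.0.16) and DESeq2 1.42.0 gave alternative scalings. Hairpins were folded with RNAfold 2.7.2. The reads carry no stated molecular identifiers.

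The members and the 5 lists (62 entries, all matched, 3 through synonyms) were chosen with earlier results of these data known. Genes named are the 5 members, leading genes of each list by mean CPM, the 3 nearest in ratio and the neighbours in rank of Mir451a and Mir486; Mir16-1, Mir16-2, Mir15a, Mir20a, Mir142, Mir223, Mir103-1, Mir126b, Mir24-1 and Mir376c, among others, were named after their values were seen.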

Additional observations from a re-analysis of the deposited data

How the results depend on the processing

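The direction and the call of Mir451a, Mir144, Mir486 and Mir3107 were the same under every scaling, count minimum and pseudocount that gave a value. Log2 ratios of replicate 1 over 2 ran from 4.22 to 4.35 for Mir451a, 3.65 to 3.78 for Mir144, -0.77 to -0.64 for Mir486 and -0.88 to -0.74 for Mir3107. The scalings shifted all ratios by 0.046 (TMM), -0.085 (DESeq2), 0.036 (all reads) and 0.029 (total without the members). The DESeq2 size factors were 1 for both libraries, so that setting compared the counts without any scaling. Without strand only Mir144 had a ratio, 3.73, and Mir451a, Mir486 and Mir3107 were at 0 CPM, because overlapping genes are tallied as ambiguous. Scaled to 1000000 reads of the whole file, the mean levels were 3817 for Mir451a, 465 for Mir144, 350.0 for Mir486 and 18.2 for Mir3107. The number of genes over 2-fold higher in replicate 1, 36 at a minimum of 10 counts, was 100 at 1 count, 17 at 100 counts and 181 with no filter, and in replicate 2, 27 became 70 at 1 count and 149 with no filter, since these minimums change which genes are tested. With each replicate left out, the level of Mir451a was 986 to 19490 CPM and that of Mir144 175 to 2321 CPM. Mir451a over Mir144 was 5.64 to 8.40. No paired analysis was possible because there is 1 group.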
